A study of Mus musculus musculus x Mus musculus castaneus with 12 samples.

Results

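*Bcar3*, *Hsd17b11*, *Snx24* and *Treml2* are the 4 genes, of 24346 in the expression tables, that were lower in the *Kdm6a* knockout (KO) clones of both reciprocal crosses of F1 hybrid mouse embryonic stem (ES) cells. They were chosen on that contrast: each had a DESeq2 adjusted p under 0.05 and a decrease of at least 1.5-fold in both crosses. The decrease in KO clones is therefore given below as a description, without a test, and tests are kept for other contrasts. Several of these share samples with the choice. ES cells came from matings of C57BL/6J (BL6) with *Mus castaneus* (cast), so that SNPs tell the maternal from the paternal allele. The BC cross has a BL6 mother and the CB cross a cast mother.

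RNA-seq was available for 12 samples. The male cells were wild type (wt) in 2 samples of each cross and KO in 3 clones of each cross, and 2 further samples were wt female cells of the BC cross. The KO clones carried either an exonic deletion (ΔE1 and ΔE3 in BC, ΔE2.5 and ΔE2.7 in CB) or a deletion of the promoter region (ΔP4 in BC, ΔP2.1 in CB). Each KO sample is a single edited clone. ΔE1 and ΔE3 share their editing event, as the study's methods state, and both also lack *Sh3kbp1*, *Map3k15* and *Pdha1*. The BC clones therefore stand for 2 events. The CB line carries an actin-GFP transgene. All cells were grown with serum and LIF on inactivated mouse embryonic fibroblasts, which were reduced by plating on gelatin before collection. Male cells have a single *Kdm6a* copy, on the maternal X chromosome, so the edited allele is the BL6 one in BC and the cast one in CB. Nothing in the labels says that the wt replicates were separate derivations, so that the p-values measure the spread between these samples only.

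KDM6A is a histone demethylase that removes methyl groups from a lysine of histone H3 at which methylation by the Polycomb complex marks silent genes, and it also works in complexes that activate enhancers. Its gene is X-linked and escapes X inactivation in females. The 4 genes are not known as a pathway and have different roles. BCAR3 is a signalling adaptor that binds the scaffold p130Cas (encoded by *Bcar1*) at cell adhesions, and was first known for making breast cancer cells resistant to anti-oestrogens. HSD17B11 is a short-chain dehydrogenase of the 17-beta-hydroxysteroid dehydrogenase family that sits on lipid droplets. SNX24 is a sorting nexin, a protein with a phosphoinositide-binding PX domain found on endosomal membranes. TREML2 is a cell-surface receptor with an immunoglobulin-like domain, related to the TREM receptors of myeloid cells.

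The guide pairs are shown because they define the kinds of clone compared below. Each is written 5′ to 3′ with the PAM, the bases that Cas9 needs beside its target, in capitals.
ΔE Left: gaaacctcacgaacccgaaaAGG
ΔE Right: tagcattatctgcataccagAGG
ΔP Left: ggacactgcatgtttgatggAGG
ΔP Right: agctacatactccaaaggagAGG
In GRCm38 (GENCODE M21), the ΔE Left target lies on the minus strand of the X chromosome from 18163390 to 18163409, in exon 2 of the 5 *Kdm6a* transcripts that hold it, of 10 annotated. The other guides matched no annotated *Kdm6a* transcript.

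Levels are counts per 1e+06 fragments (CPM) after TMM scaling over the 12 samples, from the diploid counts, which hold fragments mapped to either parental genome. The samples held 49975599 to 89070402 such fragments. Fragments with a SNP of one strain were 7.84% to 10.1% of them. *Kdm6a* was at 115 and 119 CPM in male BC wt and at 109 and 112 CPM in male CB wt. The promoter clones were nearly without it, at 0.0941 CPM in ΔP4 and 0.0815 CPM in ΔP2.1. The exonic clones kept 26.5 CPM (ΔE1), 30.8 CPM (ΔE3), 4.61 CPM (ΔE2.5) and 16.5 CPM (ΔE2.7). The counts take in exons that the deletion left in place, so these values are not intact *Kdm6a* RNA.

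*Bcar3* (ENSMUSG00000028121.8, chromosome 3 of GRCm38, 122294136 to 122530191, plus strand, 12 exons) was at 30.5 and 30.3 CPM in male BC wt. The KO clones of that cross were at 13.0 (ΔE1), 13.1 (ΔE3) and 19.3 CPM (ΔP4). In CB, wt was at 60.9 and 61.1 CPM and the clones at 35.4 (ΔE2.5), 31.0 (ΔE2.7) and 40.5 CPM (ΔP2.1). All clones lay below both wt samples of their cross, with the promoter clone the highest of the 3 in each. The clones kept 49.7% ± 12 of the wt level in BC and 58.4% ± 7.83 in CB (SD, n = 3 clones each). On the log2 scale, edgeR gave a fold change of KO over wt of -0.99 in BC (standard error 0.20) and -0.76 in CB (standard error 0.12). Because *Bcar3* began at a higher level in CB, the CB KO clones still had more of it than the BC wt samples. For reference, the study's qPCR primer pair for this gene (left, ataagatcatccaggtggcg, and right, catcagcagagggactgaca) spans 251 bp from exon 9 to exon 11 of 1 of its 10 annotated transcripts, while the counts here cover all exons. Non-coding genes on the opposite strand overlap *Bcar3*, and the libraries do not mark strand, so reads of those could not be told apart.

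*Hsd17b11* (ENSMUSG00000029311.16, chromosome 5, 103989762 to 104021919, minus strand, 7 exons) was at 31.0 and 31.1 CPM in male BC wt. It was at 10.8 CPM in ΔE1, 11 in ΔE3 and 14.2 in ΔP4. In CB, wt was at 47.3 and 45.7 CPM against 26.4 in ΔE2.5, 28.8 in ΔE2.7 and 29.9 in ΔP2.1. The wt and KO values do not overlap in either cross, and the clones of a cross lie close together. The clones kept 38.7% ± 6.14 of wt in BC, the lowest mean of the 4 genes in either cross, and 61.0% ± 3.89 in CB (SD, n = 3 each). The log2 fold changes were -1.35 in BC (standard error 0.17) and -0.70 in CB (standard error 0.09).

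*Snx24* (ENSMUSG00000024535.16, chromosome 18, 53245662 to 53390920, plus strand, 7 exons) was at 8.84 and 9.46 CPM in male BC wt, and at 5.14, 5.61 and 4.99 CPM in ΔE1, ΔE3 and ΔP4. In CB, wt was at 12.3 CPM in both samples, ΔE2.5 at 6.86, ΔE2.7 at 7.27 and ΔP2.1 at 9.51 CPM. The BC clones lie close together, whereas in CB the promoter clone stood above the exonic clones. The clones kept 57.3% ± 3.58 of wt in BC and 64.0% ± 11.6 in CB (SD, n = 3 each), with log2 fold changes of -0.79 (standard error 0.18) and -0.63 (standard error 0.18).

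*Treml2* (ENSMUSG00000071068.7, chromosome 17, 48299498 to 48312533, plus strand, 5 exons) was, per transcript length (TPM), the lowest of the 4. It was at 8.37 and 8.09 CPM in male BC wt against 3.13 (ΔE1), 3.83 (ΔE3) and 4.89 CPM (ΔP4). In CB, wt was at 4.72 and 4.5 CPM against 1.54 (ΔE2.5), 2.61 (ΔE2.7) and 1.71 CPM (ΔP2.1). Wt and KO did not overlap within a cross, but the BC KO clone ΔP4 was above both CB wt samples. The clones kept 48.0% ± 10.8 of wt in BC and 42.5% ± 12.5 in CB (SD, n = 3 each). The log2 fold changes were -1.04 (standard error 0.24) and -1.22 (standard error 0.27). *Treml2* is the gene of the 4 whose decrease was larger in CB than in BC, a difference given below.

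**Figure D1:**
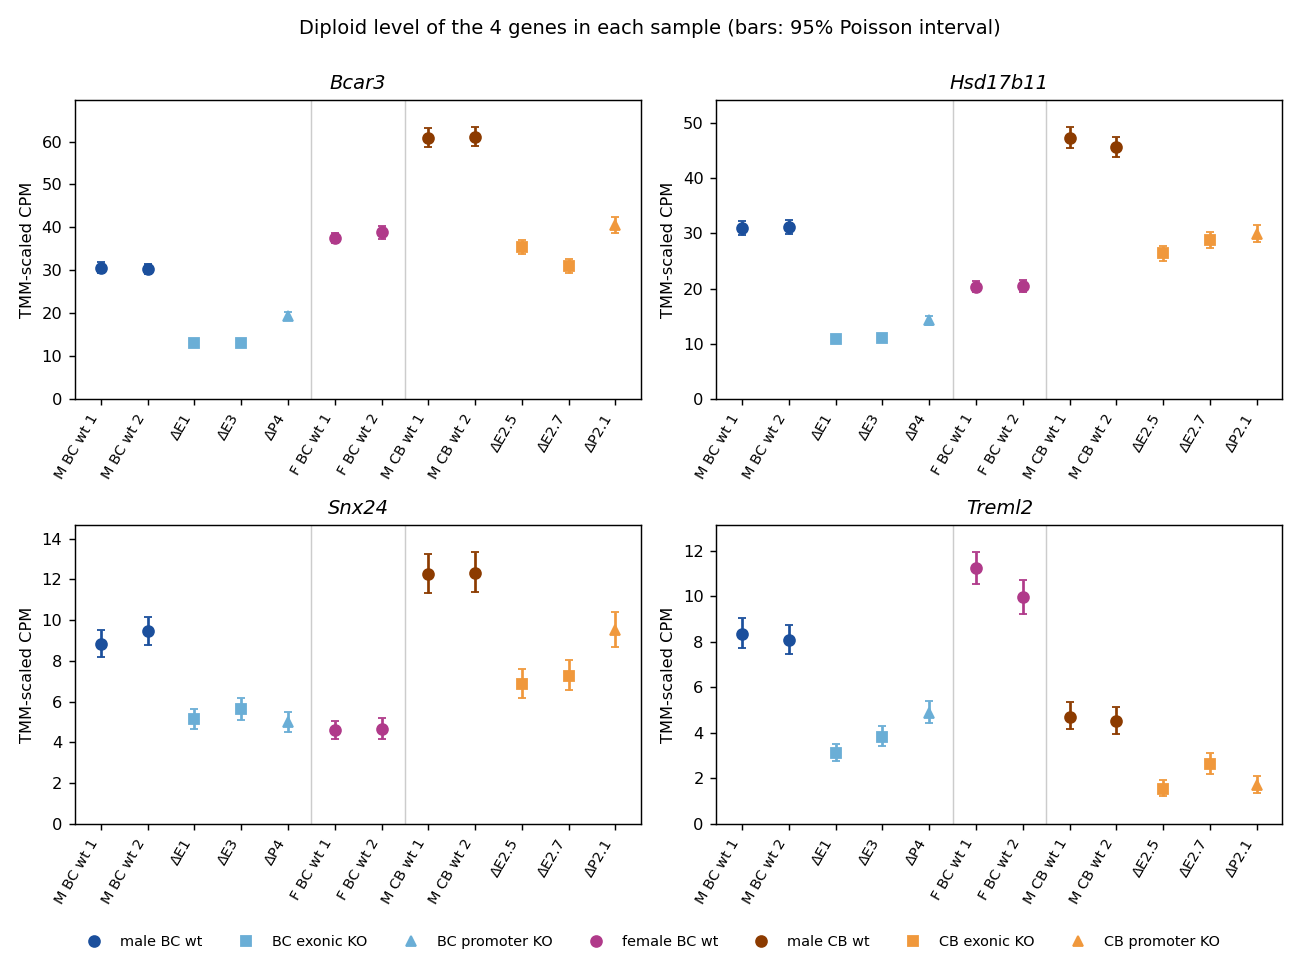
Level of each gene (TMM-scaled CPM, linear axis from 0) in each of the 12 samples (M, male; F, female), with the 95% Poisson interval of its counts as bars. In each panel all 3 KO clones of a cross lie below both wt samples of that cross, for example *Hsd17b11* at 10.8 to 14.2 CPM in BC KO against 31.0 and 31.1 CPM in wt.

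Compared per length, the wt means ranged from 5.29 TPM for *Treml2* to 43.6 TPM for *Hsd17b11* in BC, and from 3.19 to 70.4 TPM for the same genes in CB. *Hsd17b11* was above 67.1% of the tested genes in BC, *Bcar3* above 53.3%, *Snx24* above 40.3% and *Treml2* above 27.9%, so that the group spans mid to low levels.

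DESeq2 called 105 of 13805 genes lower in BC (0.761%) and 341 of 13801 in CB (2.47%), and the 4 genes are those called in both. The quasi-likelihood test of edgeR called 3 genes lower in BC (0.0217%) and 0 in CB at the same thresholds, with 620 and 1452 lower at an unadjusted p under 0.05, and none of the 4 was among its calls. Without ΔP2.1 it called 566 genes lower in CB, with *Bcar3*, *Hsd17b11* and *Snx24* among them. With all 12 samples in the variance estimate it called 31 in BC, with *Bcar3* and *Hsd17b11* among them, and 26 in CB, with *Hsd17b11*. Of 13305 genes, 2236 (16.8%) had all KO clones below both wt samples in BC, 3305 (24.8%) in CB and 426 (3.20%) in both. Just inside the rule was *Snx24*, with a DESeq2 adjusted p of 0.039 in CB. Just outside by adjusted p in at least 1 cross were *Bcl6b* (0.054 in BC), *Col1a2* (0.067 in BC, 0.082 in CB) and *Has2* (0.11 in BC). Just outside by size were *Tmem164*, *Hmgxb4* and *Zbtb34*, with log2 fold changes of -0.51, -0.48 and -0.48 in CB.

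The size of the decrease was compared between the crosses as the interaction of cross and KO over the 10 male samples, a fit that called 9 of 14298 genes (0.0629%). The choice asked for a decrease of at least 1.5-fold in each cross on the same samples, so the difference between the 2 decreases is not free of it. The differences of the 4 genes are therefore given without a test. The log2 fold change of *Hsd17b11* was higher by 0.64 in CB than in BC (standard error 0.20), the widest difference of the 4, and by 0.79 without ΔP4. The difference was 0.22 for *Bcar3* (standard error 0.26), 0.15 for *Snx24* (standard error 0.25) and -0.19 for *Treml2* (standard error 0.37), and these 3 are smaller than their standard errors.

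The level kept in each clone is set here beside its remaining *Kdm6a* RNA, which rests on 8 fragments in ΔP4 and 4 in ΔP2.1. The paper reports loss of KDM6A protein in its KO clones, and its methods name ΔE1 and ΔE3 for the Western blot. The RNA left is therefore not an amount of protein. For *Bcar3*, the share of wt kept was highest in the promoter clone of each cross, at 66.4% in ΔP2.1 and 63.6% in ΔP4. These had 0.0737% and 0.0802% of wt *Kdm6a* RNA. The share was 58.1% in ΔE2.5 (4.17% of *Kdm6a* RNA), 50.8% in ΔE2.7 (15.0%), and 42.7% and 42.9% in ΔE1 and ΔE3 (22.6% and 26.3%). *Hsd17b11* was also highest in the promoter clone of each cross, at 45.8% in ΔP4 against 34.9% and 35.5% in the exonic BC clones, and at 64.3% in ΔP2.1 against 56.7% and 61.9% in CB. The other genes had no such order. *Snx24* was lowest in the promoter clone in BC (54.5% against 56.2% and 61.4%) and highest there in CB (77.3% against 55.7% and 59.1%). *Treml2* was highest in the promoter clone in BC (59.5% against 38.0% and 46.6%) but in CB ΔP2.1 (37.1%) lay between ΔE2.5 (33.5%) and ΔE2.7 (56.7%). The 6 clones stem from fewer editing events, and the amount of *Kdm6a* RNA goes with the kind of deletion, so these cannot be told apart.

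**Figure D2:**
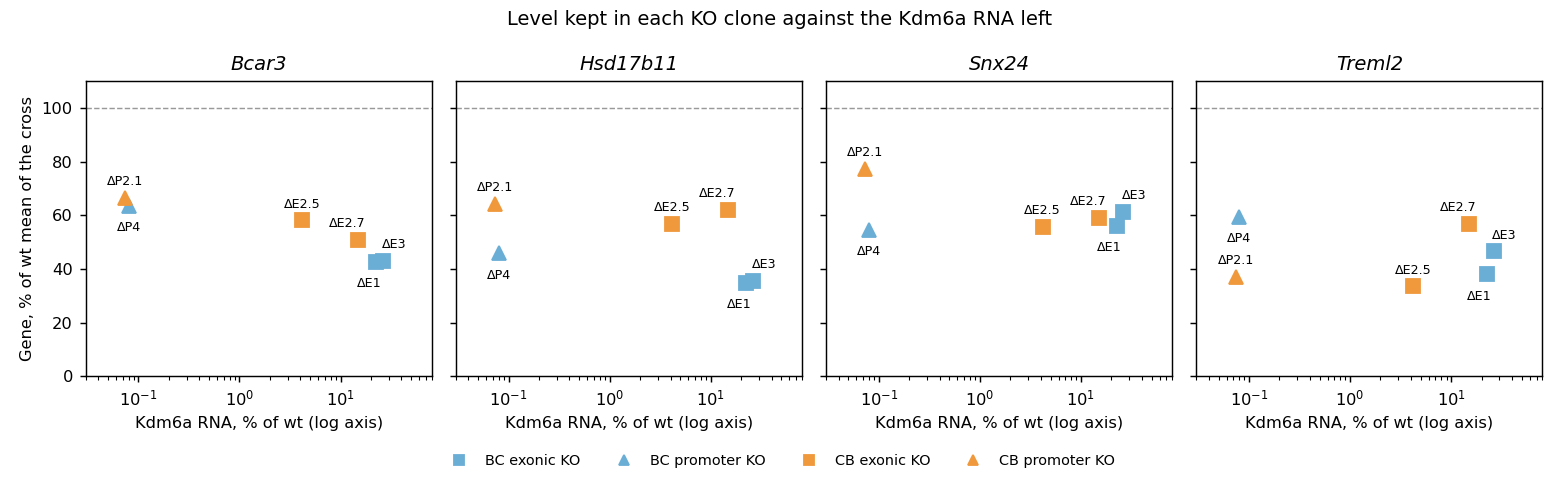
Level of each gene in each KO clone as percent of the wt mean of its cross (linear axis) against the *Kdm6a* RNA left in the clone as percent of wt (log axis). The promoter clones, at 0.0737% and 0.0802% of *Kdm6a*, hold the highest share of *Bcar3* in each cross, 66.4% and 63.6%, and no gene reaches its wt level in any clone.

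Promoter clones were tested against exonic clones over the 6 KO samples with the cross as covariate. The choice of the genes used the same 6 samples, and a small adjusted p in each cross favours genes whose clones lie close together. The values of the chosen genes in this test are therefore not free of the choice, and an adjusted p that did not pass does not show equal levels. The edgeR test called 0 of 14168 genes (683 at an unadjusted p under 0.05, and 30 called by DESeq2). *Bcar3* was higher in the promoter clones by 0.44 on the log2 scale (standard error 0.15), which did not pass (edgeR adjusted p = 0.95, DESeq2 adjusted p = 0.39). The values were 0.26 for *Hsd17b11* (standard error 0.15), 0.18 for *Snx24* (standard error 0.23) and 0.15 for *Treml2* (standard error 0.34), with edgeR adjusted p of 0.95, 0.97 and 0.99. Without the single promoter clone of CB the value for *Snx24* was -0.09, and without that of BC the value for *Treml2* was -0.28.

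Allele-specific values came from fragments with a SNP, so they are less precise than diploid values. The level of an allele is the diploid CPM multiplied by the share of that allele, after correction for the ratio of BL6 to cast fragments over all autosomal genes in the sample. Since the sum of both alleles chose the genes, the levels of single alleles are described, and the balance between them is tested. Of the 48 values of 2 alleles of the 4 genes in 6 clones, 47 were below the wt mean of that allele. The BL6 allele of *Snx24* in ΔP2.1 was the exception.

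In BC, the maternal BL6 allele of *Bcar3* kept 42.3%, 48.9% and 69.7% of wt in ΔE1, ΔE3 and ΔP4, and the paternal cast allele 43.1%, 35.6% and 56.0%. In CB, the maternal cast allele kept 49.4%, 46.2% and 72.5% in ΔE2.5, ΔE2.7 and ΔP2.1, and the paternal BL6 allele 68.4%, 56.2% and 59.2%. Both alleles were thus lower in each clone, and no parent had the lower value throughout. For *Hsd17b11* the maternal allele kept 30.1% to 45.5% in BC and 51.9% to 63.1% in CB, while the paternal one kept 33.8% to 46.4% in BC and 65.8% to 72.1% in CB. In CB its maternal allele kept less than the paternal one in all 3 clones. *Treml2* kept 40.8% to 62.5% of the BL6 allele and 35.3% to 58.8% of the cast allele in BC. In CB it kept 38.6% to 58.2% of the BL6 and 31.7% to 56.2% of the cast allele.

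Whether KO changed the balance of the alleles was tested with the sample as a block. This called 2 of 11491 genes in BC (0.0174%) and 0 of 10895 in CB (271 at an unadjusted p under 0.05), and none of the 4 in either cross. In BC the BL6 allele differed from the cast allele in its log2 fold change by 0.24 for *Bcar3* (standard error 0.17), -0.16 for *Hsd17b11* (0.20), 0.18 for *Snx24* (0.20) and 0.13 for *Treml2* (0.23), with edgeR adjusted p from 0.84 to 0.96. In CB the differences were 0.15 for *Bcar3* (0.25), 0.26 for *Hsd17b11* (0.15), 1.02 for *Snx24* (1.28) and 0.22 for *Treml2* (0.25), each with an edgeR adjusted p of 1. *Treml2* had 31, 54 and 41 SNP fragments in the CB clones. These standard errors do not show that the alleles were lowered alike.

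**Figure D3:**
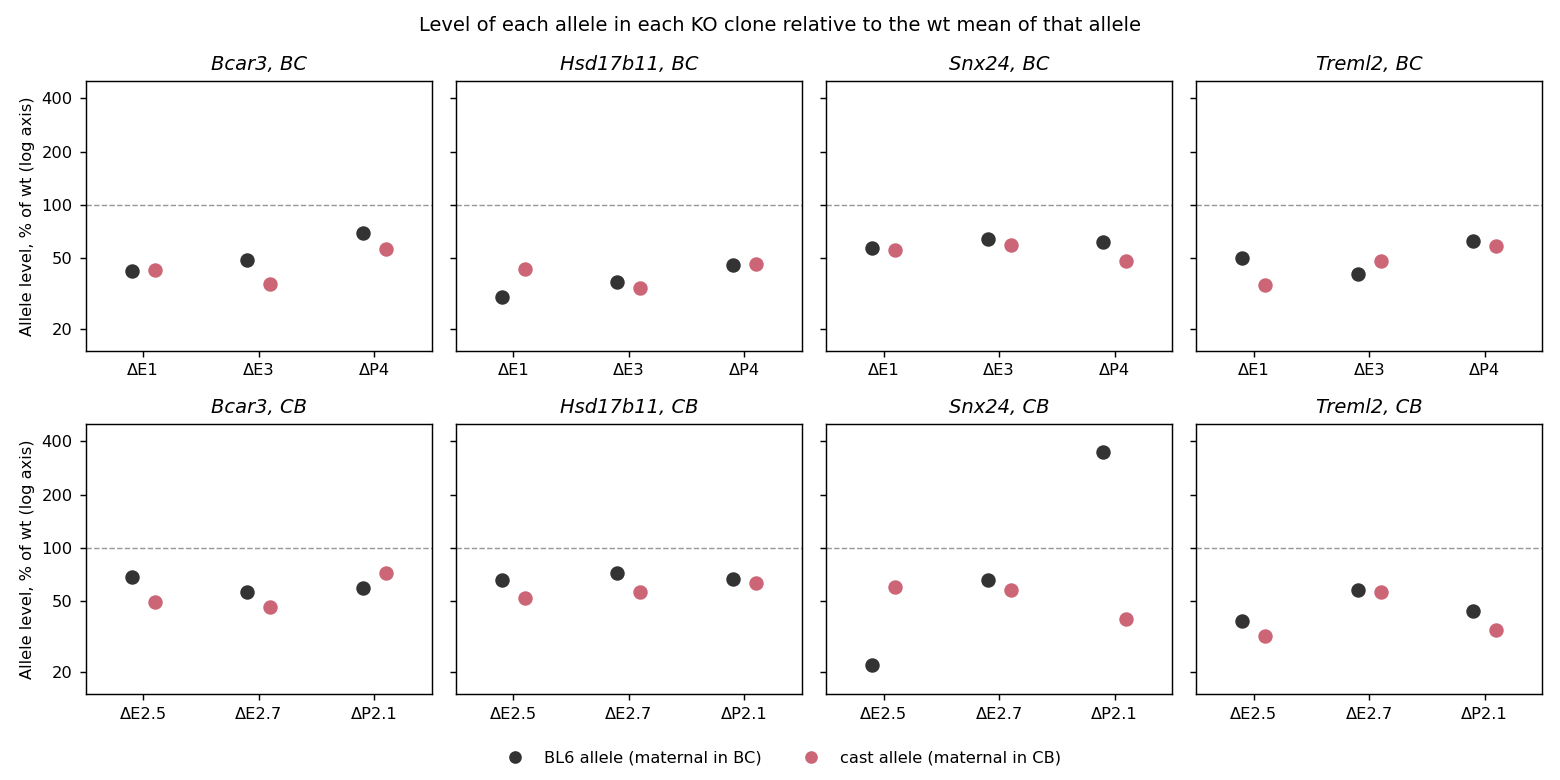
Level of the BL6 and the cast allele of each gene in each KO clone as percent of the wt mean of that allele (log axis, dashed line at wt), for BC in the upper row and CB in the lower row. All points lie below the line but 1, the BL6 allele of *Snx24* in ΔP2.1 at 349%.

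*Snx24* in CB had the widest spread between clones. BL6 fragments were 14.6% (95% exact binomial interval 10.0% to 20.4%) and 13.6% (8.94% to 19.6%) of its SNP fragments in the CB wt samples, 6% (2.23% to 12.6%) in ΔE2.5 and 15.2% (8.97% to 23.6%) in ΔE2.7. In ΔP2.1 they were 58.3% (49.8% to 66.5%), from 84 BL6 and 60 cast fragments. The exonic clones overlap wt in this share and ΔP2.1 stands apart from all 4 other CB samples. After correction, the BL6 allele was at 5.24 CPM in ΔP2.1 against a wt mean of 1.5 CPM, 349% of it. The cast allele was at 4.27 CPM against 10.8 CPM, or 39.5%, the lowest of the 3 clones, where ΔE2.5 kept 60.4% and ΔE2.7 58.1%. So the cast allele was lower in all 3 CB clones, and the higher diploid level of *Snx24* in ΔP2.1 lay in the BL6 allele. Without ΔP2.1 the difference in KO effect between the alleles was -0.47 (standard error 0.48, edgeR adjusted p = 1) in place of 1.02. Genes in the 10 Mb window centred on *Snx24* had a median BL6 share of 48.1% in ΔP2.1 against 42.7% and 41.9% in CB wt (19 genes). For 298 genes of chromosome 18 the medians were 48.4% against 43.0% and 43.3%. Their shift was thus small beside that of *Snx24*. Intervals cover counting error only.

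**Figure D4:**
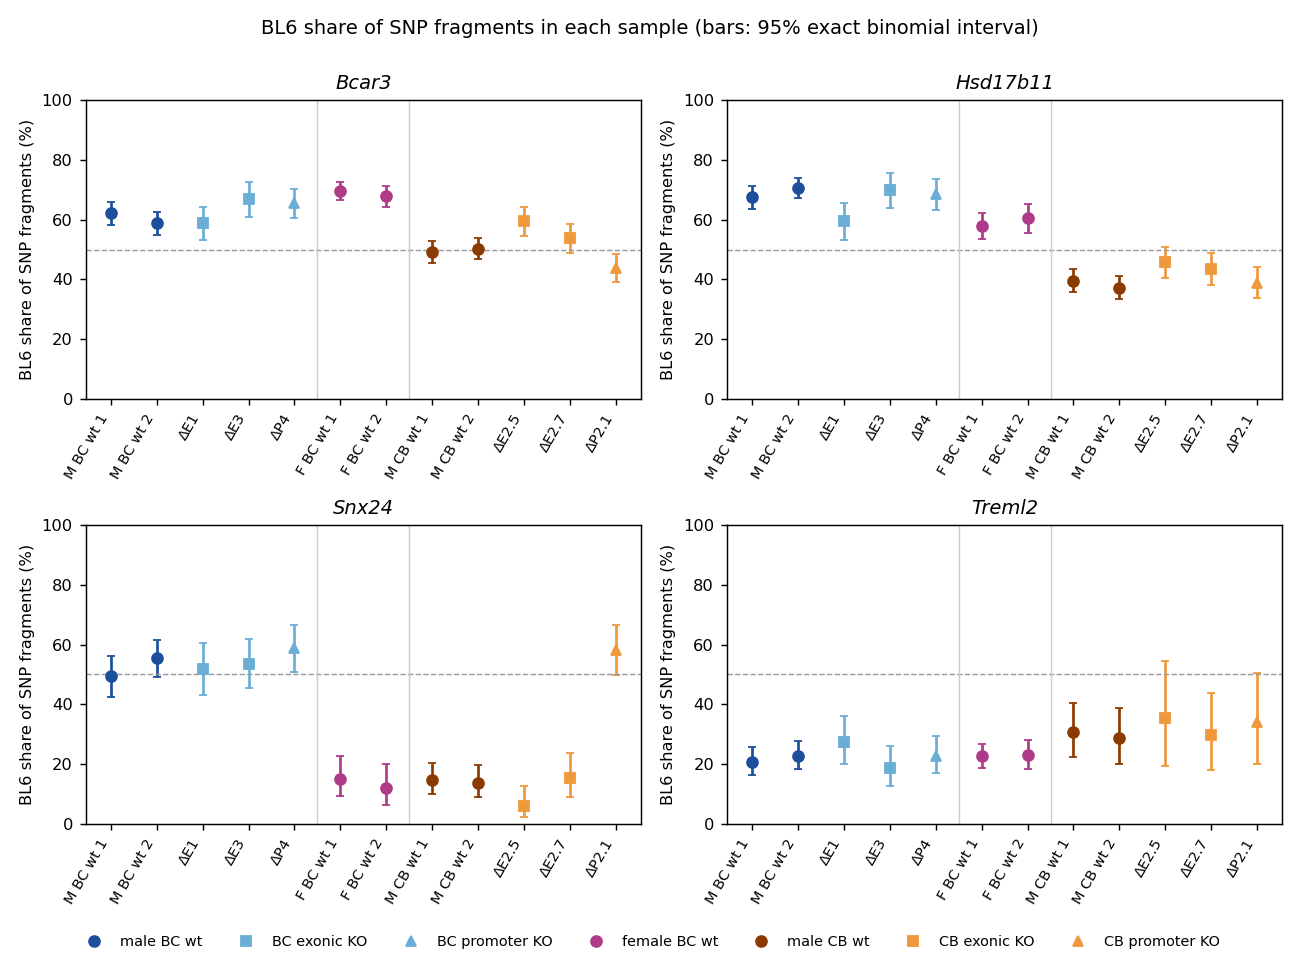
BL6 share of the SNP fragments of each gene in each sample before correction, with 95% exact binomial intervals (M, male; F, female). For *Snx24*, ΔP2.1 is at 58.3% while the other CB samples are at 6% to 15.2%, and the female BC samples lie far below the male BC samples.

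In wt, the alleles of the 4 genes differed in their balance, which the choice did not use. Strain and parent of an allele were tested together over the 4 male wt samples. These are from 1 line of each cross, so an allele difference particular to 1 line would enter both terms. The p-values of these terms measure the spread between replicates of a line, not between lines. *Treml2* was mostly from the cast allele in both crosses: after correction BL6 made 17.5% and 19.1% in BC and 27.4% and 25.2% in CB. Its BL6 allele was below the cast allele by a log2 value of -1.82 (standard error 0.13, edgeR adjusted p = 3.2e-40). Over all 11253 genes the test called 5424 lower (48.2%) and 2748 higher in BL6 (72.6% in all), with a median of -0.18. TMM over the allele libraries moved the median to 0.00 and the split to 3640 lower and 3864 higher, and *Treml2* to -1.64. *Bcar3* and *Hsd17b11* were near balance between strains, at 0.02 and -0.03 (adjusted p = 0.74 and 0.66), and at 0.20 and 0.15 with TMM (adjusted p = 0.0026 and 0.048), where the sign of *Hsd17b11* turned.

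*Hsd17b11* came more from the maternal allele in both crosses. The maternal share after correction was 62.6% and 66.0% in male BC wt, 64.3% and 66.7% in CB wt, and 62.2% and 64.6% in female BC wt. Before correction it was 67.4% and 70.7% in male BC wt and 57.9% and 60.4% in female BC wt. The maternal allele was above the paternal one by a log2 value of 0.89 (standard error 0.07, edgeR adjusted p = 7.7e-37), in a test that called 2506 of 11253 genes higher on the maternal allele (22.3%) and 1409 lower (12.5%). With TMM over the allele libraries the split was 2349 higher and 1957 lower, and *Hsd17b11* was at 0.86. In the KO clones the maternal share of *Hsd17b11* was 55.5%, 66.0% and 63.8% in BC and 60%, 59.8% and 64.2% in CB. The maternal allele had the larger share in each clone. *Bcar3* was above by 0.28 (standard error 0.06, adjusted p = 5.1e-05). *Treml2* was lower on the maternal allele by a log2 value of -0.34 (standard error 0.14, adjusted p = 0.045), a call lost when any 1 of the 4 samples was left out (adjusted p from 0.061 to 0.27).

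*Snx24* was called in both terms, at -1.5 for BL6 against cast (standard error 0.12, adjusted p = 3.9e-32) and at 1.34 for maternal against paternal (standard error 0.12, adjusted p = 1.5e-25). Its shares followed neither strain nor parent throughout. BL6 made 44.1% and 49.9% in male BC wt and 12.7% and 11.8% in male CB wt, but also 17.4% and 14% in female BC wt, where BL6 is the maternal strain as in male BC. Each cross and sex is 1 line here, so that strain, parent and line cannot be told apart for this gene, nor by these tests for the others. Female BC wt also differed from male BC wt in *Bcar3*, with BL6 at 73.4% and 71.8% against 57.0% and 53.4%. Before correction the gap was smaller, at 69.8% and 68.0% against 62.1% and 58.8%. The autosomal BL6 to cast ratio behind the correction was 0.837 and 0.835 in the female samples and 1.24 in both male BC wt samples, so it moves female and male shares in opposite directions. These female shares were not tested against the male ones.

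The levels of the 4 genes between sexes were compared in BC wt. *Kdm6a* was at 144 and 146 CPM in female cells against 115 and 119 CPM in male cells. *Snx24* was lower in females, at 4.58 and 4.66 CPM against 8.84 and 9.46 CPM (log2 fold change -0.99, standard error 0.10, edgeR adjusted p = 3.8e-06). *Hsd17b11* was also lower, at 20.4 CPM in both samples against 31.0 and 31.1 CPM (-0.61, standard error 0.07, adjusted p = 1.3e-05), though total count scaling put it at -0.52 and a minimum of 5 TPM at -0.57, both under 1.5-fold and so not called. The female value of *Snx24* was below those of all 3 male BC KO clones, and that of *Hsd17b11* between KO and wt. *Bcar3* was at 37.5 and 38.8 CPM against 30.5 and 30.3 CPM (0.33, standard error 0.07, adjusted p = 0.0012), and *Treml2* at 11.2 and 9.97 against 8.37 and 8.09 CPM (0.37, standard error 0.09, adjusted p = 0.0040). Both were higher in females with a change under 1.5-fold, so that 2 of the 4 genes were called at the full threshold, both lower. The test called 6247 of 14049 genes (44.5%), 2802 of them lower (19.9% of the genes tested), and 76.0% passed the adjusted p alone, so that changes of this kind were common. The comparison shares the male BC wt samples with the KO comparison. Each sex is 1 line here, so sex and line cannot be told apart. Genes in the 10 Mb window centred on each gene also differed from male wt in the female samples. Their median log2 difference was -0.35 and -0.30 around *Snx24* and -0.11 and -0.20 around *Hsd17b11*. Around *Treml2* it was 0.21 and 0.23, and around *Bcar3*, itself higher in females, -0.22 and -0.26.

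Between the crosses, the wt level of *Bcar3* in CB was 2.01 times that in BC (log2 difference 1.04, standard error 0.05, edgeR adjusted p = 5.9e-06). *Hsd17b11* was higher by 0.62 (standard error 0.05, adjusted p = 6.2e-05) and *Snx24* by 0.47 (standard error 0.07, adjusted p = 0.0011, under 1.5-fold). *Treml2* was lower in CB, by a log2 value of -0.80 (standard error 0.08, adjusted p = 0.00017). Thus 3 of the 4 genes were called, 2 higher and 1 lower. The male wt samples compared were also used in choosing the genes, so this comparison is not independent of the choice. Of 13828 genes the test called 34.5%, with 19.8% higher and 14.7% lower, and 71.4% passed the adjusted p alone. *Kdm6a* was at nearly the same level in both lines.

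The neighbours of the 4 genes show how genes along the chromosome behaved. Of the 24 nearest tested genes, 3 on each side of each gene, 15 had a log2 fold change below 0 in BC, 13 in CB and 8 in both. The edgeR test called 0 of them in either cross, against 4 of 13805 genes in all in BC (0.0290%) and 0 in CB, so this count says little about them. At an unadjusted p under 0.05, 3 of the 24 passed in BC (12.5%) and 6 in CB (25%), where 11% and 20.5% of all genes did. Lower by at least 0.5 on the log2 scale in both crosses were *Lox*, a collagen cross-linking enzyme near *Snx24*, and *Apobec2*, of the APOBEC deaminase family, near *Treml2*. *Lox* was at -0.77 (standard error 0.49) in BC and -1.06 (1.03) in CB, and *Apobec2* at -0.54 (0.23) and -0.58 (0.26). Higher by as much in both crosses were *Tfeb*, a transcription factor of lysosomal genes near *Treml2*, at 0.71 (0.31) and 0.60 (0.25), and *Spp1*, an extracellular matrix phosphoprotein near *Hsd17b11*. DESeq2 called *Spp1* higher in both crosses (log2 fold changes 0.87 and 0.67, adjusted p = 0.025 and 0.0012). The median log2 change of all genes on chromosomes 3, 5, 17 and 18 was between -0.09 and 0.05 in each clone.

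**Figure D5:**
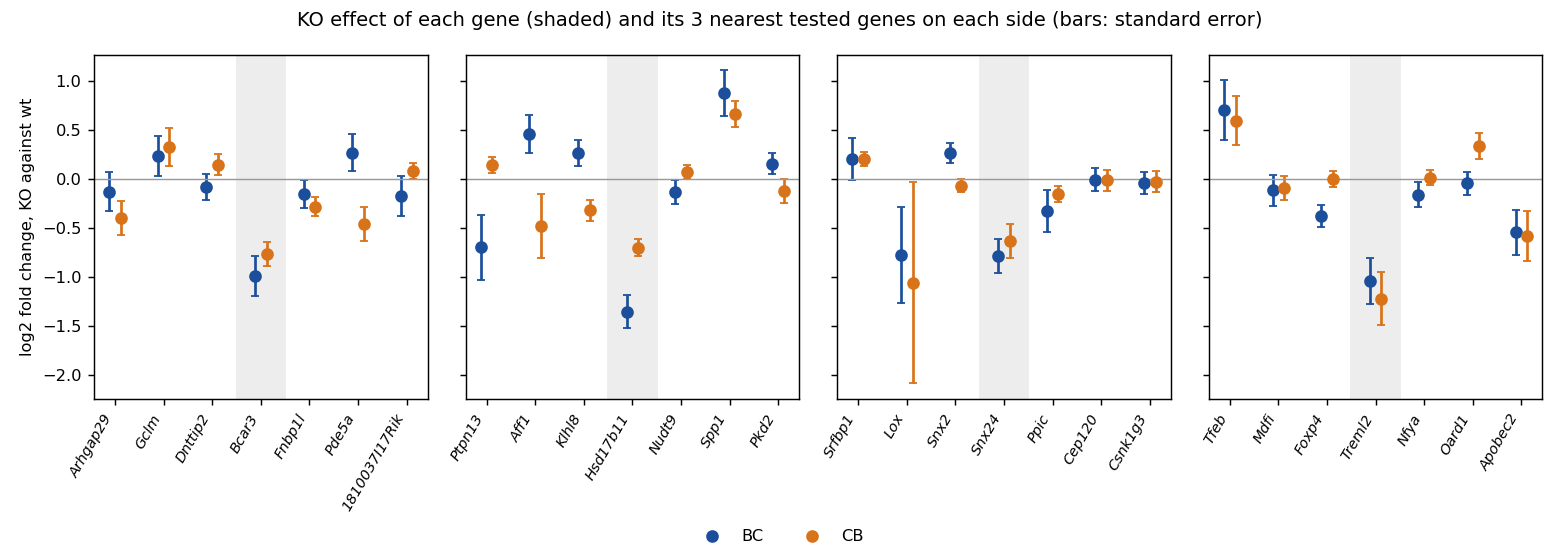
Log2 fold change between KO and wt from edgeR, with its standard error, for each of the 4 genes (shaded) and the 3 nearest tested genes on each side, in annotated order, in BC and CB. The 4 genes lie at -0.63 to -1.35, while *Spp1* is at 0.88 in BC and 0.67 in CB.

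Genes related to the 4 by family or pathway were taken from lists. None of the 67 tested passed the edgeR test in either cross, which called hardly any gene at all. At an unadjusted p under 0.05, 6 of the 67 passed in BC and 17 in CB, 14 of these lower. DESeq2 called 260 genes in BC (1.88%), 155 of them higher (1.12% of all), and 501 in CB (3.63%), 160 of them higher (1.16%), so that a list of this size would hold few calls. Of 17 Cas adaptors and Rap or Ras signalling partners of BCAR3, all 17 were tested, DESeq2 called *Cass4*, a Cas family scaffold, higher in CB, and the median log2 fold change was -0.01 in BC and -0.25 in CB, against 0.01 over all genes in each cross. At an unadjusted p under 0.05, 2 of the 17 passed in BC (11.8%) and 8 in CB (47.1%), 7 of the latter lower. *Bcar1* was at -0.46 in BC and -0.05 in CB, and *Nedd9*, another Cas scaffold, at 0.54 and -0.39. Of 11 other 17-beta-hydroxysteroid dehydrogenases, 6 were tested and DESeq2 called *Hsd17b1*, which makes oestradiol, higher in BC. *Hsd17b12*, of fatty acid elongation, was at -0.06 and -0.18. The liver paralog beside *Hsd17b11*, *Hsd17b13*, had a mean of at most 0.0192 CPM in wt and KO of both crosses. Of 17 lipid droplet proteins, 13 were tested, and DESeq2 called *Dgat2*, a triglyceride synthase, higher in CB. Most of that list went the other way in CB: the median log2 fold change was 0.08 in BC and -0.13 in CB, with 3 and 10 of the 13 below 0.

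Of 31 other sorting nexins and retromer subunits, 30 were tested and none was called by either tool, which at the shares given above is near the background. Their median was 0.09 in BC and -0.14 in CB, with 11 and 27 of 30 below 0. *Snx10* was at 0.20 and -0.01, and *Vps35*, a retromer core subunit, at -0.15 and -0.26. Of 8 TREM receptors and partners, only *Cd276*, proposed as a ligand of TREML2, reached the level for testing, at -0.27 and -0.23. *Tyrobp*, the signalling partner of TREM receptors, had a mean of at most 0.00959 CPM. None of the TREM receptors on this list reached the level for testing. *Treml2* did, though at only 1.54 to 2.61 CPM in the CB KO clones.

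Genes with the most similar course over the 12 samples were found by Pearson's r of log2(CPM + 1) among 13510 genes. The samples share lines and wt groups, so r reflects the differences between lines as well as the KO. For *Bcar3* they were *Plekhg3*, *Slc35g1* and *Ndst1* (r = 0.94 each). For *Hsd17b11*, *Foxh1*, a transcription factor of Nodal signalling, came first (r = 0.94), at 72.8 CPM in BC wt, 32.4 in BC KO, 39.6 in female wt, 88.4 in CB wt and 72.0 CPM in CB KO, followed by *Kifc2* (0.93) and *Sema3f* (0.92). For *Snx24* they were *Med22*, *Ppp1r18* and *Pomgnt1* (0.96, 0.96 and 0.95), and for *Treml2*, *BC068281*, *Zfp354c* and *Cdk2* (0.93, 0.92 and 0.91). Spearman's rho of these 12 genes was 0.85 to 0.99. Among the 4 genes, which were chosen for a common decrease over these samples, r was 0.91 for *Bcar3* and *Hsd17b11* (Spearman's rho 0.68), 0.86 for *Hsd17b11* and *Snx24* (rho 0.85) and 0.64 for *Bcar3* and *Snx24* (rho 0.47). For *Treml2* with the others, r was -0.21 to 0.12 and rho -0.36 to 0.05.

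The samples had the markers of pluripotent ES cells, with *Pou5f1* at 1027 to 1945 CPM and each of the 8 markers above 50 CPM in each sample. Their sum was 4138 and 4550 CPM in male BC wt, 4153 to 5699 CPM in BC KO, 2923 and 2933 CPM in CB wt and 3259 to 3681 CPM in CB KO. In female BC wt it was 8256 and 8515 CPM, above both male samples. Of the 8, 4 had all KO clones above both wt samples in BC, where 15.4% of all genes did, and 3 in CB (21.9%). *Nanog* was among them in BC, at 259, 407 and 295 CPM in ΔE1, ΔE3 and ΔP4 against 174 and 197 CPM in wt, but not in CB.

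Markers of feeder fibroblasts differed between the samples too. The sum of 10 such genes was 57.9 and 64.1 CPM in BC wt and 25.7 to 51.4 CPM in BC KO. In CB it was 181 and 190 CPM in wt, 43.5 in ΔE2.5, 83.2 in ΔE2.7 and 317 CPM in ΔP2.1, of which *Col1a1* made 228 CPM. The fibroblast marker sum was thus lower than in wt in 5 of the 6 clones and higher in ΔP2.1. All KO clones were below both wt samples for 7 of the 10 markers in BC and 3 in CB, where 16.8% and 24.8% of all genes were. The markers ranged from *Lum*, at 0 to 0.428 CPM, to *Col1a1*, at 5.52 to 228 CPM, and *Thy1* reached 43.7 CPM in female cells. Primitive endoderm markers summed to 30.8 to 44.0 CPM in BC KO against 46.8 and 48.9 CPM in wt, and to 51.0 to 56.5 CPM in CB KO against 61.1 and 62.1 CPM, mostly *Dab2*. Of these 6 markers, 1 had all KO clones below both wt samples in BC and 1, *Gata4*, all above. In CB, 2 had all KO clones below and 0 all above. The 5 myeloid markers summed to 7.44 and 9.02 CPM in BC wt, 9.60 to 11.7 CPM in BC KO, 6.54 and 6.70 CPM in CB wt and 7.29 to 8.28 CPM in CB KO. Most of this was *Cd68*, a lysosomal protein, at 5.35 to 17.7 CPM and above both wt samples in all 6 clones, while *Itgam* was at 0.396 to 2.001 CPM and *Csf1r*, *Ptprc* and *Lyz2* at or below 0.328 CPM. The sum hides opposite directions: 3 of the 5 myeloid markers had all KO clones below both wt samples in BC, and 3 did in CB. The part of these cells in the results was not tested, and in bulk RNA fewer cells of a type cannot be told apart from less RNA per cell.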

How the data were processed

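RNA-seq of 12 ES cell samples was analysed. For each gene the authors deposited an estimated count, the number of fragments mapped to the BL6 genome, a pseudo-cast genome or either (diploid), and of fragments with a BL6 or a cast SNP. Single-end reads of 75 bp were mapped to mm10 with TopHat and Bowtie2 2.2.5 (submitters' processing notes), and uniquely mapped reads with a MAPQ of at least 30 were kept. The values were deposited without normalization, and the counter and its annotation are not given in the sources used here.

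Estimated counts were rounded and tested with edgeR 4.0.16 (limma 3.58.1, R 4.3.3), quasi-likelihood, TMM and Benjamini-Hochberg adjustment over the genes that passed 1 TPM in any sample of the comparison. The call threshold was an FDR under 0.05 with 1.5-fold, or the FDR alone for interactions and alleles. DESeq2 1.42.0, the study's method, was the alternative. *Sh3kbp1*, *Map3k15* and *Pdha1* were left out in BC. TPM used transcript lengths of GENCODE M21 (23310 of 24346 genes matched by symbol, 2283 bp for the rest). Allelic tests took autosomal genes with a mean of at least 20 SNP fragments, with the autosomal SNP count of each allele as library size. Tables were made in pandas 2.3.3 and scipy 1.17.1 (numpy 2.4.6, Python 3.11.15), and figures with matplotlib 3.10.9. The tests were tested on simulated counts. The 4 genes, the lists and the tests were chosen with earlier results of these data known. The genes named are the 4, *Kdm6a*, those nearest the thresholds, 3 neighbours on each side, the 3 most similar genes of each, the list genes called by either tool, and 6 known relatives or partners. *Hsd17b13*, *Tyrobp*, the neighbours past 0.5 in both crosses and the markers named were singled out after their values were seen. Replicate counts differed by more than sampling noise on average in each wt group (mean chi-square per gene 15.9 to 32.8). The median was far lower, at 2.78 in male BC wt, 1.88 in female BC wt and 0.70 in male CB wt, so a part of the genes carried the mean. Alternatives were another scaling, filter, genome or variance estimate, averaging ΔE1 and ΔE3, a replicate block and leaving out each sample.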

Additional observations from a re-analysis of the deposited data

Results flagged for a closer look

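The BL6 allele of *Snx24* in CB moved in opposite directions in the kinds of clone: it was at 349% of wt in the promoter clone ΔP2.1 but at 22.0% in ΔE2.5 and 66.0% in ΔE2.7. The promoter group is 1 clone, and the difference between exonic and promoter clones was not tested for a single allele.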

How the results depend on the processing

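The decrease of the 4 genes between KO and wt kept its direction in every fit run. Over all alternatives and samples left out, the log2 fold changes were -1.22 to -0.89 for *Bcar3*, -1.497 to -1.28 for *Hsd17b11*, -0.84 to -0.74 for *Snx24* and -1.23 to -0.90 for *Treml2* in BC, and -0.86 to -0.67, -0.74 to -0.65, -0.78 to -0.54 and -1.49 to -1.08 in CB. Counts of called genes moved far more. Genes called lower in BC, 3 in edgeR, were 105 with DESeq2, 5 without a filter, 31 with all 12 samples in the variance estimate, 5 with ΔE1 and ΔE3 averaged, and 1 to 4 with a sample left out (1 without ΔE1). In CB, 0 became 341, 26 with all 12 samples, and 0 to 566 (566 without ΔP2.1). The 9 genes with a difference between crosses became 632 with DESeq2, 14 without a filter, 23 with the clones averaged and 3 to 306, with 15 without ΔE1, 17 without ΔE3, 88 without ΔP4, 306 without ΔP2.1, 4 without ΔE2.5 and 3 without any 1 of the 4 wt samples. For promoter against exonic clones, 0 became 30 with DESeq2, 1 without a filter and 0 to 3 (3 without ΔP4, 1 without ΔE2.5 or ΔP2.1). The 2 genes with an allele difference in BC became 1 to 555, 555 without ΔP4 and 1 without either wt sample.

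Of the values for single genes, those not called turned sign in places. For the difference between crosses, leaving out samples gave -0.00999 (without ΔP2.1) to 0.25 for *Snx24* and -0.45 to 0.00022 for *Treml2* (-0.338 without ΔE1, 0.00022 without ΔP4). Promoter against exonic clones ranged over -0.0879 to 0.43 for *Snx24*, turning without ΔP2.1, and -0.28 to 0.51 for *Treml2*, turning without ΔP4. The allele difference in BC ranged over -0.27 to 0.0297 for *Hsd17b11* and -0.0467 to 0.27 for *Treml2*, both turning without ΔE1. In CB it ranged over -0.0049 to 0.38 for *Bcar3*, turning without ΔE2.5, and -0.47 to 1.87 for *Snx24*, turning without ΔP2.1. BL6 against cast ranged over -0.0282 to 0.0773 for *Bcar3* and -0.0888 to 0.0170 for *Hsd17b11*, which was 0.15 with TMM over the allele libraries. TPM in place of CPM moved none of the 8 mean KO levels by more than the spread between clones. The cause of these changes was not tested.

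With the wt replicate number as a replicate block, female against male gave 6283 calls in place of 6247 and CB against BC wt 4825 in place of 4773. It changed no call of the 4 genes, and 2 numbers cannot show a pairing. No paired analysis was possible for KO against wt, because the clones carry names and no shared numbers. Limits are the 2 wt samples and 3 clones in each cross, 1 line for each cross and sex, and few SNP fragments for *Snx24* and *Treml2*.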
